A study of Mus musculus with 11 samples.

Results

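The mouse genes named Cfap (cilia and flagella associated protein, followed by a number) were taken from a table of raw read counts of testis RNA, by their symbols in the GENCODE M21 annotation. That annotation holds 31 such symbols. Cfap53, Cfap54, Cfap70 and Cfap221 were left out of the group by the rule that defined it, and Cfap99 was not analysed here, which leaves 26 of the 23074 genes in the table. All 26 are protein coding, and they lie on 11 autosomes. The counts come from whole decapsulated testes of 5 wild type and 6 Rfx2-/- mice at postnatal day 21 (P21), all of a mixed C57BL/6, 129/Sv and FVB/N background. In Rfx2-/- mice an exon that encodes much of the DNA binding domain of the transcription factor RFX2 had been deleted in the germ line with a ubiquitously expressed actin-promoter Cre, so every cell of the testis carries the deletion.

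Motile cilia and sperm flagella share a core, the axoneme, in which doublet microtubules surround a central pair of single microtubules. Cfap proteins were named for their presence in such organelles and not for a shared fold or ancestry: some line the inside of the doublet wall, some anchor dynein arms or radial spokes, and some build the central pair apparatus or load dyneins before they reach the axoneme. RFX2 binds X-box elements in promoters, and germ cells use it most in late meiosis and in round spermatids, shortly before the flagellum is assembled. P21 falls in the first wave of spermatogenesis, at the change from meiosis to haploid development.

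Of the 26 Cfap genes, 25 passed edgeR's filter on low counts and were tested. Cfap97d2, the remaining gene, had 1 to 5 reads in wild type and 0 to 2 reads in Rfx2-/- mice and is not compared. Expression of Cfap46, Cfap157 and Cfap161 was lower in Rfx2-/- testis at an adjusted p of at most 0.01 (edgeR's quasi-likelihood test, Benjamini-Hochberg adjustment over all 15745 tested genes), by 5.94-fold, 16.5-fold and 25.1-fold. These 3 genes are 12% of the Cfap genes tested, where 1.94% of all tested genes were called lower. More than 2-fold lower were the same 3 genes and 1.04% of all genes. No Cfap gene was called higher, where 0.73% of all genes were called higher and 0.216% more than 2-fold higher. At an unadjusted p under 0.05 there were 13 Cfap genes, 7 below and 6 above wild type, or 52% of those tested, where 41.8% of all genes had such a p. DESeq2, tried as an alternative, called 5 Cfap genes lower and 2 higher, and 904 and 1128 of all genes. In 18 of the 25 genes the fitted fold change was under 2 either way, and the median log2 fold change over the 25 was 0.30, with 7 genes below 0 and 18 above. Over all tested genes the median was -0.05. In bulk testis, fewer cells of a type and less RNA per cell cannot be told apart in any of these values.

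**Figure D1:**
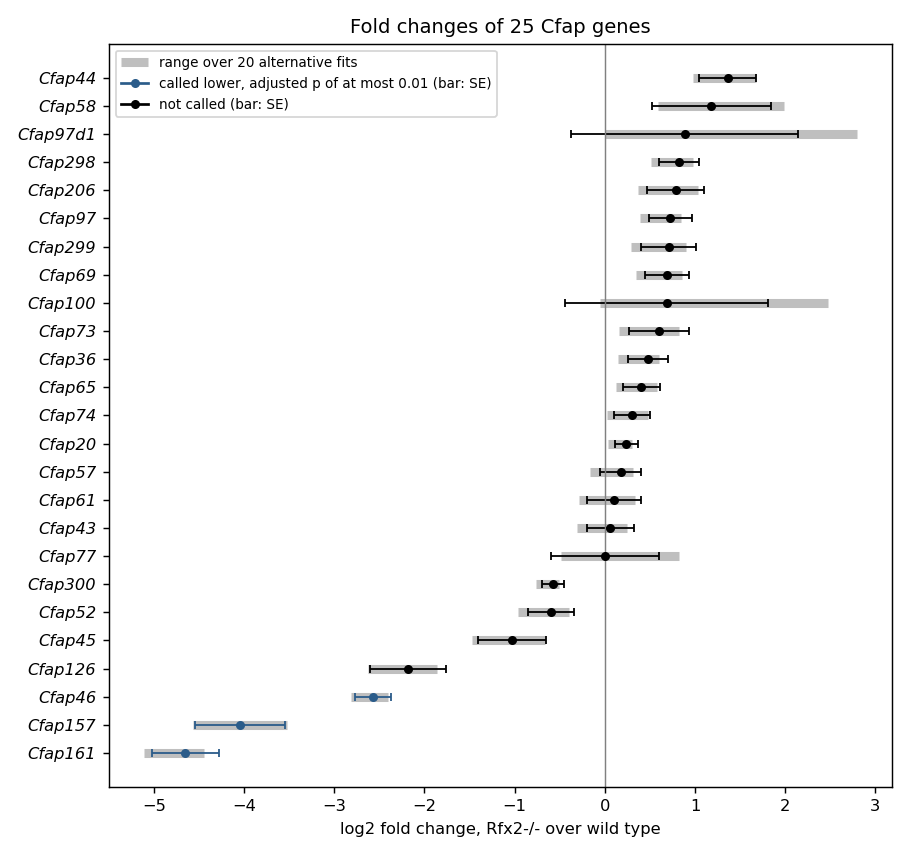
Log2 fold change of the 25 tested Cfap genes (horizontal axis, Rfx2-/- over wild type; points with bars of 1 SE), ordered from lowest to highest, with the range over 20 alternative fits in grey. Cfap161, Cfap157 and Cfap46 (blue) lie at -4.65, -4.05 and -2.57 and Cfap126, not called, lies close to Cfap46 at -2.18.

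The depth was 26925157 to 29769483 counted reads per mouse in wild type and 22232097 to 27116903 in Rfx2-/- testis, lower in the latter (two-sided exact permutation p = 0.013). Expression is given as CPM, reads per 1000000 of the TMM-scaled library, and a floor of 3 reads corresponds to 0.0852 to 0.139 CPM. Rfx2 itself had 191 to 472 CPM in wild type and 282 to 324 CPM in Rfx2-/- mice over all its exons, a count that holds no check of the deleted exon. The wild type mice differed in their germ cell markers. Summed over 11 round spermatid markers, wild type mice 1 to 5 had 579.6, 145, 18.6, 27.4 and 9.996 CPM, and Rfx2-/- mice had 34.2 to 773.6 CPM. Summed over 8 pachytene markers, wild type mice 3 and 5 had 4919 and 4663 CPM, below the other 3 wild type mice (9348 to 10870 CPM) and below every Rfx2-/- mouse (9440 to 12230 CPM). Sertoli cell markers summed to 2256 to 3403 CPM in wild type and 2207 to 2608 CPM in Rfx2-/- testis. None of these markers was called in either direction, and the log2 fold changes of the 11 round spermatid markers ran from -0.937 to 1.199. Of the markers of 7 other cell types, 1 of 5 Leydig cell markers was called lower and no other was called. Their part in the results was not tested beyond the fit with a round spermatid score. Cilium-bearing epithelia also express Cfap genes. Their 6 markers summed to 29.4 to 188 CPM in wild type and 36.6 to 174.5 CPM in Rfx2-/- testis. Of these, Mcidas, Gmnc and Sec14l3 had 0 to 9 reads per mouse and Foxj1, Deup1 and Tppp3 had 102 to 2738. The sum was highest in wild type mouse 1 and Rfx2-/- mouse 7, the mice also highest in round spermatid markers. The part of these epithelia in the results was not tested.

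In 5 Cfap genes all Rfx2-/- mice lay under the lowest wild type mouse (Cfap46, Cfap126, Cfap157, Cfap161 and Cfap300). This is 20% of the tested members, where 5.2% of all tested genes showed the same separation. In Cfap44, Cfap97 and Cfap298 all Rfx2-/- mice exceeded the highest wild type mouse. These 3 are 12% of the members, where 6.5% of all genes were separated in that direction. For 6 of these 8 genes RefSeq gives a promoter window in the GRCm38.p6 assembly, from 250 bases before to 50 bases after the transcription start, and none was found for Cfap157 and Cfap97. The stretches of these windows that match an X-box or a single arm of one are printed 5′ to 3′ on the strand of the gene, because X-boxes are the elements that RFX proteins bind. Capitals mark the matching letters.
Cfap161, chr7:83794865-83794913, minus strand: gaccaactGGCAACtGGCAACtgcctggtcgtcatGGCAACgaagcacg
Cfap46, chr7:139683811-139683832, minus strand: cgtctctaGGCAACcgctactg
Cfap126, chr1:171122955-171122984, plus strand: tgttcaagGTATCCATGGCTACttctcagt
Cfap300, chr9:8042984-8043005, minus strand: caaagactGGCAACctccttcc
Cfap44, upstream, chr16:44394662-44394683, plus strand: gactctgtGGCAACacctcagt
Cfap44, at the start, chr16:44394772-44394793, plus strand: gttgctatGGCAACcgcagtaa
Cfap298, upstream, chr16:90935016-90935045, minus strand: gggttttgGTTGCCCGGGCAACagctactt
Cfap298, nearer the start, chr16:90934896-90934926, minus strand: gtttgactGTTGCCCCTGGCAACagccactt

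The motifs searched on both strands were the single arm GTTGCC, whose reverse complement reads GGCAAC, the X-box GTNNCCNNGGNNAC with its spacer of 2 bases, and the same pair of arms with a spacer of 1 base (GTNNCCNGGNNAC) or 3 bases (GTNNCCNNNGGNNAC). The single arm overlaps the longer motifs where both match. Cfap161 held the single arm at 3 places, beginning 66, 59 and 39 bases before the start, and Cfap46 at 1 place, 9 bases before it. In Cfap44 the arms began 129 and 19 bases before the start, and in Cfap300 122 bases before. Cfap126 held an X-box in 1 of its windows, 82 bases before that start. That start lies inside the annotated gene and not at its beginning. The promoter of Cfap298 matched both an X-box, 188 bases before the start, and the form with 3 spacer bases, 69 bases before. This start too lies inside the annotated gene, and both matches of Cfap298 fall within that gene. The match of Cfap161 that begins 39 bases before the start also falls within its annotated gene. Genes below and genes above wild type in all Rfx2-/- mice thus both matched these letters.

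Across the 21 Cfap genes with a window, 10 (47.6%) held the single arm, where 14.1% of 27025 genes with a RefSeq window did. The X-box was found in 4 (19.0%) against 2.16% of genes, the spacer of 1 base in 2 (9.5%) against 1.18%, and that of 3 bases in 1 (4.8%) against 0.73%. At least 1 of the 4 motifs was present in 14 of the 21 (66.7%) and in 16.4% of all genes. Among these were 8 of the 15 Cfap genes whose genotypes overlapped or that were not tested, such as Cfap206, which was not called and whose X-box begins 23 bases before the start, and Cfap58, with the 1-base spacer 59 bases before the start. Both are shown for comparison with the stretches above.
Cfap206, chr4:34730208-34730237, minus strand: cgcgttccGTTTCCACGGTTACgcgactgc
Cfap58, chr19:47937645-47937673, plus strand: gcgtggcgGTTGCCAGGCGACcgaagacg
No windows were found for Cfap65, Cfap73 and Cfap299. A match of letters is a description and does not show that RFX2 was bound there.

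Of the 6 Cfap genes whose proteins sit in or on the doublet wall (Cfap20, Cfap45, Cfap52, Cfap77, Cfap126 and Cfap161), 1 was called lower and none higher, with a median log2 fold change of -0.81. Cfap161 (ENSMUSG00000011154, chr7:83774101-83794880, minus strand), which encodes a protein of the inner face of the doublet, fell most among all Cfap genes. Its values were 97.2, 83.1, 30.9, 81.1 and 24.0 CPM in wild type mice 1 to 5, and 2.27 to 2.87 CPM in Rfx2-/- mice with a median of 2.46. Wild type mice 3 and 5 were low, but still far above the highest Rfx2-/- mouse. The log2 fold change was -4.65 (SE 0.37, adjusted p = 4.61e-05), and Cfap161 was called in each of the 20 alternative fits. Per length of merged exons it stood at rank 15 of the 25 genes in wild type and at rank 24 in Rfx2-/- testis. Between 51 and 66 reads remained in each Rfx2-/- mouse, so the gene was not at the floor.

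Cfap126 (Flattop, ENSMUSG00000026649, chr1:171113918-171126967, plus strand), whose protein is needed to position basal bodies and lies on the doublet, was just outside the limit. Wild type mice 1 to 5 had 75.2, 54.6, 19.3, 41.8 and 17.8 CPM, and Rfx2-/- mice 5.55 to 15.1 CPM with a median of 8.92. The lowest wild type mouse lay only a little above the highest Rfx2-/- mouse. The log2 fold change was -2.18 (SE 0.42, adjusted p = 0.0104 with edgeR), and the gene was called lower in 7 of the 20 alternative fits. Cfap45, another protein inside the doublet, had 199, 114, 50.9, 116 and 43.4 CPM in wild type and 37.1 to 82.9 CPM (median 43.2) in Rfx2-/- mice. Here the genotypes overlapped, because wild type mice 3 and 5 lay within the Rfx2-/- range. Its log2 fold change of -1.03 (SE 0.38) did not pass the test (adjusted p = 0.0734).

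Cfap52, which lies at a seam inside the doublet, averaged 123 ± 53.1 CPM over the 5 wild type and 81.4 ± 9.50 CPM over the 6 Rfx2-/- mice (± SD, as for all means that follow), with a log2 fold change of -0.59 (adjusted p = 0.105, edgeR). Cfap20, which closes the junction between both tubules of the doublet, had the smallest ratio of highest to lowest wild type mouse among the Cfap genes (1.57), with 77.6 to 121 CPM against 112 to 132 CPM in Rfx2-/- mice (log2 fold change 0.24, adjusted p = 0.177). Cfap77 was the lowest of the 25 per length in wild type, with 0.701 to 5.36 CPM in wild type and 0.889 to 3.51 CPM in Rfx2-/- mice, and its fold change of 0.00 had an SE of 0.60 (adjusted p = 0.998). With so wide an error, a change of 2-fold in Cfap77 could not have been told from none.

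Among the 4 genes of the central pair apparatus (Cfap46, Cfap65, Cfap69 and Cfap74), 1 was called lower. Cfap46 (ENSMUSG00000049571, chr7:139600951-139683817, minus strand) encodes a large component of a projection on one of the central microtubules and had the lowest adjusted p of the Cfap genes. It had 87.6, 62.8, 51.1, 69.7 and 35.7 CPM in wild type mice 1 to 5, and 10.4, 11.3, 8.09, 10.6, 9.69 and 11.8 CPM in Rfx2-/- mice 6 to 11. The Rfx2-/- mice hardly differed from one another, and the lowest wild type mouse was well above all of them. The log2 fold change was -2.57 (SE 0.20, adjusted p = 4.54e-05), and Cfap46 was called in all 20 alternative fits.

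The other 3 central pair genes had positive log2 fold changes that did not pass the test. Cfap69 had 256, 215, 113, 210 and 93.8 CPM in wild type and 249 to 359 CPM (median 279.7) in Rfx2-/- mice. Only wild type mouse 1 reached the Rfx2-/- range, and the log2 fold change was 0.69 (SE 0.24, adjusted p = 0.0692, edgeR). Cfap65, needed for the shape of sperm heads and tails in mice, averaged 468 ± 165 CPM (n = 5) against 619 ± 31.8 CPM (n = 6), with overlapping ranges of 260 to 685 and 565 to 651 CPM. For Cfap74 the means were 78.5 ± 27.3 and 96.7 ± 5.54 CPM (adjusted p = 0.261, against 0.15 for Cfap65).

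Cfap157 (ENSMUSG00000038987, chr2:32777381-32784428, minus strand), which encodes a basal body protein at the base of the sperm flagellum, was the third gene called lower. Wild type mice 1 to 5 had 36.6, 20.1, 6.33, 14.9 and 4.97 CPM, and Rfx2-/- mice 0.756 to 1.397 CPM with a median of 0.953. The wild type values spanned 7.36-fold, but even wild type mouse 5 lay above the highest Rfx2-/- mouse. The log2 fold change was -4.05 (SE 0.50, adjusted p = 0.000712), and it too was called in all 20 alternative fits. Between 17 and 35 reads were counted per Rfx2-/- mouse.

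Cfap58, the other gene of this pair, is needed for assembly of the flagellum and behaved differently. It had 97.8, 43.9, 10.3, 21.7 and 6.51 CPM in wild type mice 1 to 5, and 39.5 to 156 CPM (median 69.1) in Rfx2-/- mice. Its log2 fold change was 1.18 with an SE of 0.66 (adjusted p = 0.186), since wild type mice 1 and 2 lay within the Rfx2-/- range and the others below it. Wild type mouse 1 and Rfx2-/- mouse 7, the highest of their genotypes for Cfap58, were also the highest for the round spermatid markers. Without wild type mouse 1 the log2 fold change rose to 1.99 (edgeR, adjusted p = 0.0286). It fell to 0.89 without Rfx2-/- mouse 7 (edgeR, adjusted p = 0.337). Without wild type mice 3 and 5 together it was 0.59 (edgeR, adjusted p = 0.567).

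**Figure D2:**
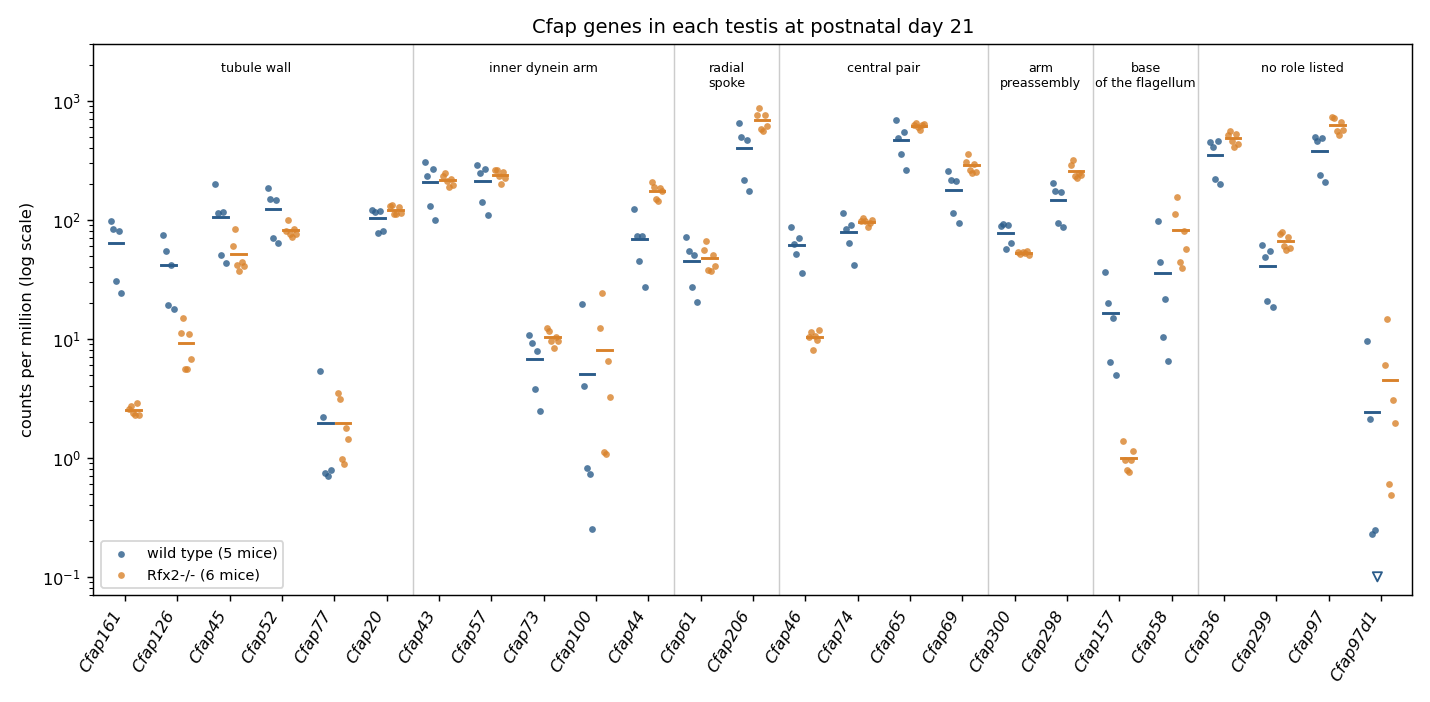
CPM of the 25 tested Cfap genes (vertical axis, log scale) in each of 5 wild type (blue) and 6 Rfx2-/- (orange) mice, with bars at the group means and genes grouped by the place or task of the protein. Cfap161, Cfap46, Cfap157, Cfap126 and Cfap300 have no orange point at or above the lowest blue point, and Cfap44, Cfap298 and Cfap97 have none at or below the highest. The value of 0 for Cfap97d1 in wild type mouse 5 is drawn as an open triangle at 0.1 CPM.

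None of the 5 genes tied to the inner dynein arms (Cfap43, Cfap44, Cfap57, Cfap73 and Cfap100) was called, and all 5 had log2 fold changes above 0, with a median of 0.60 (those of Cfap43, Cfap57 and Cfap100 were negative under 1 or more alternatives, that of Cfap43 also with total counts as library sizes). Cfap44 (ENSMUSG00000071550, chr16:44394796-44482428, plus strand), which with Cfap43 tethers an inner arm dynein to the doublet, had 122.5, 73.5, 44.6, 73.5 and 27.3 CPM in wild type mice 1 to 5. In Rfx2-/- mice 6 to 11 the values were 208, 189.5, 150.3, 144, 186.5 and 174 CPM. All Rfx2-/- mice were above wild type mouse 1, the highest of its genotype, and the log2 fold change of 1.36 (SE 0.31) was the highest of the 25 genes. The adjusted p of 0.0227 with edgeR did not pass the limit of 0.01, while 4 of the 20 alternative fits called the gene higher.

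Its partner Cfap43 averaged 208 ± 89.7 CPM in wild type (n = 5) against 217 ± 22.8 CPM in Rfx2-/- testis (n = 6), a log2 fold change of 0.06 (SE 0.26, adjusted p = 0.862). The difference between the fold changes of Cfap43 and Cfap44 was not tested. Cfap43 and Cfap58 are neighbours on chromosome 19, with 18387 bases between them in the annotation. Cfap57, of another inner arm, had 212 ± 80.6 and 239 ± 23.8 CPM (adjusted p = 0.565). Cfap73 and Cfap100, which belong to a complex that modifies inner arm assembly, were among the genes with the fewest reads. Cfap73 had 2.48 to 10.8 CPM in wild type and 8.31 to 12.3 CPM in Rfx2-/- mice (adjusted p = 0.182), and 8.47% of its exons overlap those of Ddx54 on the opposite strand. Cfap100 ranged from 0.252 to 19.45 CPM in wild type and from 1.07 to 24.3 CPM in Rfx2-/- mice, a spread of 77.3-fold and 22.8-fold within genotypes (log2 fold change 0.69, SE 1.12, adjusted p = 0.647).

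Of the genes at the base of the radial spokes, Cfap206 (ENSMUSG00000028294, chr4:34688559-34730206, minus strand) had the highest level per length of all 25 genes in both genotypes. Its values were 655, 494, 216, 467 and 173 CPM in wild type mice 1 to 5 and 557 to 869 CPM (median 687) in Rfx2-/- mice. Wild type mouse 1 alone lay within the Rfx2-/- range, and the log2 fold change was 0.79 (SE 0.32, adjusted p = 0.0911). Cfap61 averaged 44.7 ± 20.9 CPM (n = 5) against 48.0 ± 11.3 CPM (n = 6), a log2 fold change of 0.10 (adjusted p = 0.805) whose sign turned under some alternatives.

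Both genes of dynein arm preassembly, the loading of dynein complexes in the cytoplasm, were separated between genotypes, in opposite directions and by less than 2-fold. Cfap300 (ENSMUSG00000053070, chr9:8021672-8042823, minus strand) had 88.2, 91.8, 57.1, 89.9 and 63.9 CPM in wild type mice 1 to 5 and 50.2 to 54.6 CPM (median 53.0) in Rfx2-/- mice. The Rfx2-/- values lay within 1.09-fold of each other, the narrowest spread of any Cfap gene. The log2 fold change was -0.57 (SE 0.12, adjusted p = 0.0168), and 6 of the 20 alternative fits called the gene lower. Cfap298 (ENSMUSG00000022972, chr16:90925809-90935114, minus strand) had 203, 175, 93.5, 169.9 and 87.0 CPM in wild type and 226 to 315.5 CPM (median 243.5) in Rfx2-/- mice. Its lowest Rfx2-/- mouse lay above wild type mouse 1. The log2 fold change was 0.82 (SE 0.22, adjusted p = 0.0351), and 3 of the 20 alternative fits called it higher.

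Of the 4 tested genes to which no such place is assigned here (Cfap36, Cfap97, Cfap97d1 and Cfap299), none was called. Cfap97 had 499.8, 462, 236, 484 and 209.7 CPM in wild type and 516 to 730.1 CPM (median 615) in Rfx2-/- mice, all above wild type (log2 fold change 0.73, SE 0.24, adjusted p = 0.0584). Cfap299 had 60.9, 48.6, 20.7, 55.1 and 18.5 CPM in wild type and 55.4 to 79.4 CPM (median 66.0) in Rfx2-/- mice. Its highest wild type mouse lay inside the Rfx2-/- range, and the log2 fold change was 0.71 (SE 0.30, adjusted p = 0.104). Cfap36, second in level per length, had 449, 412, 219.5, 456 and 201 CPM in wild type and 410.3 to 562 CPM (median 486) in Rfx2-/- mice. The upper wild type mice overlapped the Rfx2-/- mice, and the log2 fold change was 0.48 (SE 0.22, adjusted p = 0.127). Cfap97d1 was carried by few mice, with 0 to 9.58 CPM in wild type and 0.489 to 14.7 CPM in Rfx2-/- mice, and its log2 fold change of 0.88 had an SE of 1.26 (adjusted p = 0.597). It went from 0.007 without Rfx2-/- mouse 7 to 2.79 without wild type mouse 1.

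Levels per length, in RPKM from the merged exons of the annotation, spanned from 0.960 ± 0.981 for Cfap77 to 173 ± 87.4 for Cfap206 in wild type testis (SD, n = 5). Cfap36 (168 ± 61.1 RPKM), Cfap298 (94.2 ± 33.8 RPKM), Cfap65 (81.7 ± 28.8 RPKM) and Cfap97 (75.4 ± 28.5 RPKM) followed. Cfap206 and Cfap36 differed by less than the spread between mice, as did Cfap298, Cfap65 and Cfap97. The same 5 genes held the first 5 ranks in Rfx2-/- testis. Cfap161, Cfap157 and Cfap46 had 21.0, 9.58 and 7.46 RPKM in wild type and 0.834, 0.576 and 1.26 RPKM in Rfx2-/- testis. Together these 3 genes made up 4.39% of the summed Cfap CPM in wild type and 0.326% in Rfx2-/- testis.

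**Figure D3:**
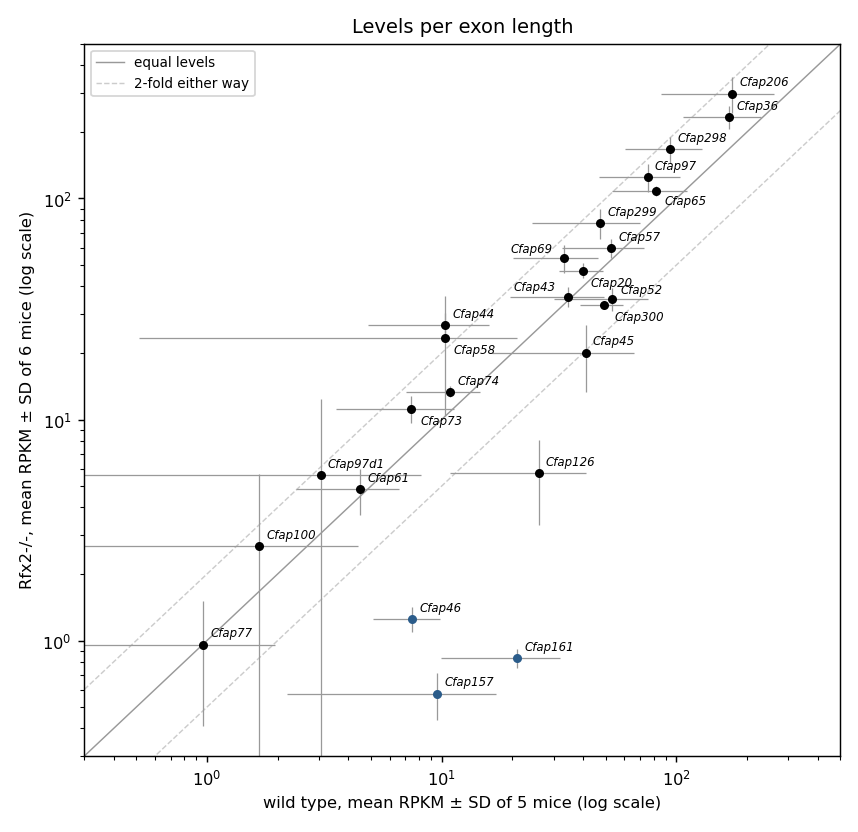
Mean RPKM of the 25 Cfap genes in wild type (horizontal axis, 5 mice) against Rfx2-/- testis (vertical axis, 6 mice), both on log scales. Bars are 1 SD, and their lower part is cut short where the SD is close to or above the mean. Cfap161, Cfap157 and Cfap46 (blue) and Cfap126 lie below the dashed line of a 2-fold lower level, and Cfap45 lies just under that line. Cfap206 has the highest level in both genotypes.

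Within a genotype, most Cfap genes were high or low in the same mice. Wild type mouse 1 had the highest wild type value in 23 of the 25 genes and mouse 5 the lowest in 22. Mice 3 and 5 were the lowest pair of wild type mice in 23 genes, and their summed Cfap CPM were 2043 and 1686, where mice 1, 2 and 4 had 4745, 3743 and 3850. Among Rfx2-/- mice, mouse 7 was highest in 17 genes and mouse 9 lowest in 21, with sums from 3581 to 5033 CPM. The highest wild type value was a median of 3.2 times the lowest, against 1.44 times in Rfx2-/- mice, and the ratio was larger in wild type for all 24 genes in which both could be formed. Wild type mice 3 and 5 were also the mice low in pachytene markers, and mice 1 and 7 the highest in round spermatid markers, as given above. Their part in these values was not tested.

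**Figure D4:**
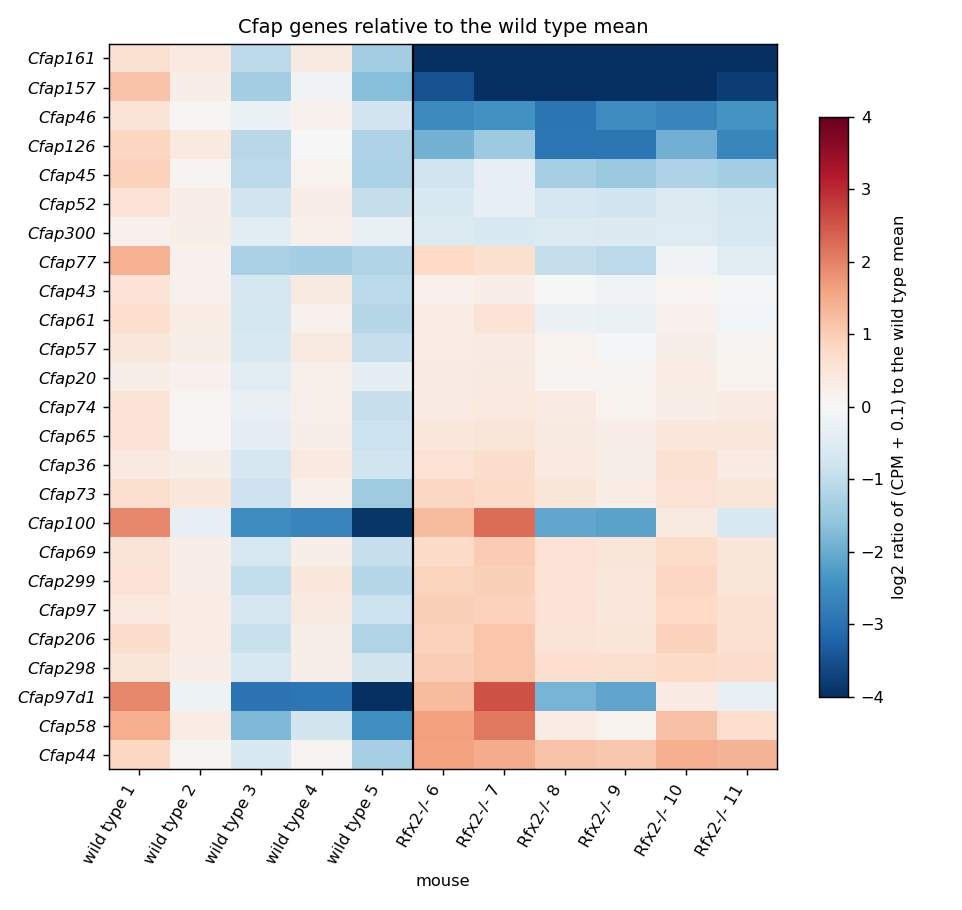
Log2 ratio of CPM + 0.1 to the wild type mean for the 25 Cfap genes (rows, ordered by fold change) in each mouse (columns, with a line between 5 wild type and 6 Rfx2-/- mice). Colours end at 4 either way. The columns of wild type mice 3 and 5 are blue for nearly every gene, and the top rows, Cfap161, Cfap157, Cfap46 and Cfap126, are blue in all Rfx2-/- mice.

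Since mice 3 and 5 lowered the wild type level of most Cfap genes, the counts were taken again without both, a choice made after seeing the data. Then 7 Cfap genes were called lower (Cfap45, Cfap46, Cfap52, Cfap126, Cfap157, Cfap161 and Cfap300) and none higher, while 437 of all genes were called lower and 170 higher. With the round spermatid score as a covariate, 6 were called lower (Cfap45, Cfap46, Cfap126, Cfap157, Cfap161 and Cfap300) and 3 higher (Cfap44, Cfap58 and Cfap298), and the numbers over all genes rose to 765 and 478. All 6 genes called lower with the covariate were also called without mice 3 and 5. That overlap is not independent, because the fits share mice and leaving out the lowest wild type mice raises most wild type levels. The median log2 fold change of the 25 genes was 0.22 with the covariate and 0.025 without mice 3 and 5.

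Other genes of the same structures were taken from lists of 17 doublet wall, 9 central pair and 22 radial spoke or nexin link genes, all 48 of which were tested. Of these, 13 were called lower and 2 higher, where 1.94% and 0.73% of all tested genes were, and the median log2 fold change was -0.04. These lists were chosen with earlier results of these data known. In the doublet wall list 4 were lower and 1 higher. Ribc2, of the ribbon inside the doublet, rose from 30.0 ± 13.4 CPM in wild type to 111 ± 14.3 CPM in Rfx2-/- testis (log2 fold change 1.89, SE 0.26, adjusted p = 0.00166, edgeR). At the other end was 1700012P22Rik, with 8.39 ± 8.89 CPM in wild type (range 1.1 to 22.9 CPM). It had no read in 5 of 6 Rfx2-/- mice and 1 in the other. By the floor of 3 reads the gene was at least 64.8-fold under its wild type mean, or 36.7-fold without wild type mouse 1 (edgeR, adjusted p = 0.000521). It was not called without Rfx2-/- mouse 9 (adjusted p = 0.0212), while Ribc2 was called in all 20 alternatives.

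In the central pair list 2 genes were lower and none higher. Spef2, needed for sperm tails in mice, fell from 43.9 ± 17.3 to 2.88 ± 0.392 CPM (log2 fold change -3.93, SE 0.26, adjusted p = 1.5e-05). In the list of spokes and links 7 were lower and 1 higher. Drc1, a core subunit of the nexin link, fell from 81.1 ± 41.4 to 2.55 ± 0.355 CPM (log2 fold change -4.99, SE 0.36, adjusted p = 2.49e-05). Wdr66, of a spoke-associated complex, rose from 123 ± 41.5 to 448 ± 24.1 CPM (log2 fold change 1.87, SE 0.21, adjusted p = 0.000377). Of the Cfap symbols outside the group, of which Cfap54, Cfap70 and Cfap221 are also counted in the central pair list, Cfap53 and Cfap70 were called lower (log2 fold changes -4.48 and -3.62), and Cfap54 (-0.49, adjusted p = 0.111) and Cfap221 (0.59, adjusted p = 0.12) were not called.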

How the data were processed

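Per the labels and the methods of the study, total RNA of decapsulated testes was made into Illumina TruSeq libraries. The submitters' processing notes name CASAVA 1.8.2, STAR 2.4, featureCounts 1.4.6 and GRCm38. The methods describe the read length and the aligner differently in different places. The authors deposited raw, unnormalized counts per gene over its merged exons, leaving out reads with several positions or on exons of more than 1 gene. No 2 mice of the same genotype agreed within sampling noise. The labels do not say whether mice were littermates.

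The genotypes were compared in edgeR 4.0.16 under R 4.3.3 (filterByExpr by genotype, TMM, glmQLFit and glmQLFTest, no covariates, all 11 mice). A call needs an adjusted p (Benjamini-Hochberg) no higher than 0.01, and "more than 2-fold" adds that fold limit. RPKM divide CPM by merged exon length in GENCODE M21. Before use, the plain edgeR, DESeq2 and voom fits were run on simulated data in which 200 genes differed. Each gene was drawn independently there, so no shift shared by many genes of a mouse was simulated. The fits with a covariate or a robust prior and the permutation test were not checked in this way. The floor of 3 reads covers counting error only. Alternatives were the size factors of DESeq2, total counts as library sizes, a robust prior, a round spermatid covariate, each mouse left out, the Wald test of DESeq2 1.42.0, voom in limma 3.58.1 (with quality weights), a filter at 1 count in all and one at a mean of 50. Leaving out wild type mice 3 and 5 together was added after seeing the data. Each of the 12 Cfap genes with the lowest adjusted p, and the 3 highest per length among those not called, is given in each wild type mouse and by range and median (or each mouse) in Rfx2-/- mice. Other Cfap genes are given by mean or range, except Cfap58, which was given per wild type mouse after its values were seen, and from each list of partners the largest called fall and rise are named. The genes, lists and roles were chosen with earlier results of these data known. Python 3.11.15, pandas 2.3.3, matplotlib 3.10.9 and SciPy 1.17.1 served for tables and figures.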

Additional observations from a re-analysis of the deposited data

Results flagged for a closer look

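Wild type mouse 1 stood apart from the other 4 wild type mice in 2 genes. Its Cfap100 level was 19.45 CPM, where the others had 0.2515 to 4.036 CPM, and its Cfap97d1 level was 9.583 CPM, where the others had 0 to 2.119 CPM. This mouse also had the highest summed round spermatid markers of its genotype. Of 50 groups of mice examined (25 genes in 2 genotypes) these were 2, and chance alone would set about 1 in 20 groups apart, or 2.5 here. The 25 genes were measured in the same mice, so these groups are not independent. Whether chance set the 2 apart was not tested. Both genes have few reads in most mice, and neither was called under any alternative.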

How the results depend on the processing

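No paired analysis was possible because wild type mice carry the numbers 1 to 5 and Rfx2-/- mice 6 to 11, so the genotypes share no number. Cfap46, Cfap157 and Cfap161 were called lower in all 20 alternatives. The number of Cfap genes called lower, 3, became 5 with total counts as library sizes, 5 with DESeq2, 7 with voom, 6 with the round spermatid covariate and 7 without wild type mice 3 and 5, and ranged from 3 to 5 when single mice were left out (5 without wild type mouse 3). More than 2-fold lower were 5 genes with voom, the covariate or mice 3 and 5 left out, and 3 to 4 without single mice. The number called higher, 0, became 2 with DESeq2, 2 with voom and 3 with the covariate, and ranged from 0 to 1 without single mice (Cfap44, without wild type mouse 1). More than 2-fold higher were 1, 1 and 2 genes under the first 3 of these and 0 to 1 without single mice. Partner genes called higher, 2, became 6 with DESeq2, voom or the covariate, 4 without mice 3 and 5, and 2 to 5 without single mice, and more than 2-fold higher 5, 4 and 4, and 2 to 4. Over all genes, 305 lower calls became 904, 682 and 765 under DESeq2, voom and the covariate and 184 to 393 without single mice (184 without Rfx2-/- mouse 10), and 115 higher calls became 1128, 367 and 478, and 45 to 192 (192 without wild type mouse 1). More than 2-fold, 163 lower calls became 314 with the covariate, and 34 higher calls became 109, 52 and 105 under the same 3, 21 without mice 3 and 5, and 20 to 66 without single mice. Of 500 fits of single Cfap genes, 24 turned the sign of a gene that was never called. Cfap43 went to -0.06 with total counts, -0.13 with voom, -0.043 with the covariate, -0.31 without mice 3 and 5, and -0.10 to 0.25 without single mice. Cfap61 went to -0.025, -0.12, -0.076 and -0.28, and -0.07 to 0.33, in that order. Cfap57 went to -0.025 with voom and -0.16 without mice 3 and 5. Cfap77 went to -0.11 with total counts, -0.24 with the covariate, -0.49 without mice 3 and 5, and -0.25 to 0.82 without single mice, and Cfap100 to -0.049 without Rfx2-/- mouse 7 and up to 2.48 without wild type mouse 1. Total counts moved the median of all genes from -0.05 to -0.22. The causes were not tested. Depth limits Cfap77, Cfap97d1, Cfap100 and Cfap97d2, which have few reads in most mice.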
